A study of Mus musculus with 2 samples.

Results

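Mouse embryos make haemoglobin from 2 families of globin genes, and the array readings of these genes were compared between matUPD18 embryos, with both copies of chromosome 18 from the mother, and patUPD18 embryos, with both copies from the father. The 7 genes examined, of which 6 were among the 18193 genes with a probe set of their own on the array, were the embryonic globins Hbb-y, Hbb-bh1 and Hba-x and the adult globins Hba-a1, Hba-a2, Hbb-b1 and Hbb-b2. A probe set (a group of short probes that together read 1 transcript) was included when the platform annotation linked it to these symbols and no others. That gave 14 of the 45101 probe sets on the array, and none was dropped for low or high signal. Each genotype was represented by 1 array of RNA from whole embryos at 8.5 dpc (days post coitum). By their labels the 2 groups had the same age and source and differed in the parental origin of chromosome 18. The labels do not say whether the tissue content was equal. The labels name no other allele or agent, and the sources used here do not state how many embryos gave each RNA. With 1 array per genotype no test between genotypes was possible, no value below carries a replicate error, and the number of arrays limits the precision.

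Haemoglobin is a tetramer of alpha-type and beta-type chains, each holding a haem group. In the mouse the alpha-type genes lie together on chromosome 11 and the beta-type genes on chromosome 7, so embryos of either kind inherit each globin gene from both parents. The first red cells, the primitive erythroid cells, arise in the blood islands of the yolk sac and express the embryonic chains: Hba-x encodes the zeta chain, Hbb-y the epsilon-y chain and Hbb-bh1 the beta-H1 chain. Primitive cells also transcribe the adult alpha genes Hba-a1 and Hba-a2, whereas the adult beta chains become the main beta-type product later, in red cells made by the fetal liver.

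Promoter sequences of 4 of the 7 genes were found in the RefSeq promoter table (build GRCm38.p6), and the 250 bases before the annotated start are shown for 3 of them because their genes are read together below. Capitals mark CACCC, the core of the box bound by the erythroid factor Klf1, and the general promoter element CCAAT. They also mark a GATA-factor motif and a TATA-type element. The GATA-factor motif was searched with an adenine or thymine in front of its core and an adenine or guanine behind it. The TATA-type element was spelled TATAAA in one search, with CATAAAA as another spelling and CATATAA as a further one. All motifs were searched on both strands, and the 2 longer TATA-type spellings were added after the sequences were seen. No 2 motif matches overlap.
Hbb-y, chr7:103853208-103853457, minus strand: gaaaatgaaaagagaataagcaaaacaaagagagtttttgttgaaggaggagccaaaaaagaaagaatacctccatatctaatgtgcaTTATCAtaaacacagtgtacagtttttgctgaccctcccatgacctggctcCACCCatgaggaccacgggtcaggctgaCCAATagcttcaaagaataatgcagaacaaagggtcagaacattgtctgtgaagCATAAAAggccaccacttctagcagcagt
Hba-x, chr11:32276350-32276599, plus strand: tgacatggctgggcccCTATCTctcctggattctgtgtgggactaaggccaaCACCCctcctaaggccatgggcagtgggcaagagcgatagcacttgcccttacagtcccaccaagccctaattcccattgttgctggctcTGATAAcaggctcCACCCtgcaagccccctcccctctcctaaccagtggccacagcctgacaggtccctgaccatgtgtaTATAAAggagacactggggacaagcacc
Hba-a1, chr11:32283422-32283671, plus strand: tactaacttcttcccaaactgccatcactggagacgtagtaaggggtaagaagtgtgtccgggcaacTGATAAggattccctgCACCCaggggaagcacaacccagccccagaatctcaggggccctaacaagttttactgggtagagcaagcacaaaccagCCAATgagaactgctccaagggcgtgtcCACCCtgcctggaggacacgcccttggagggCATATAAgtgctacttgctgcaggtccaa
Each of the 3 windows held at least 1 CACCC, 1 GATA-factor motif and 1 TATA-type element, and Hbb-y and Hba-a1 also held CCAAT. Of 32851 windows of the same length in the table, 52.0% held CACCC, 33.9% CCAAT, 26.5% a GATA-factor motif, 12.4% TATAAA, 3.77% CATAAAA and 2.12% CATATAA. These matches describe the letters only. The Hba-a2 window is not printed because it shares an unbroken run of 247 bases with that of Hba-a1. These are near-identical gene copies, and array probes may not separate their transcripts.

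All values are MAS5 signals as deposited, which were scaled to a common mean on each array, and log2 ratios are matUPD18 over patUPD18. Before a ratio was taken, low signals were lifted to a floor at the 40th percentile of their array, 84.2 in matUPD18 and 82.5 in patUPD18. A probe set was called measurable when either signal reached its array's 60th percentile (190.1 and 184.9). Of the 14 globin probe sets, 10 were measurable, and all 10 reached the limit on both arrays, so none was kept only because of its level in 1 genotype. That does not hold for every companion gene described below. The 10 comprised 1 probe set of Hba-x, 3 of Hbb-bh1, 3 of Hbb-y and 3 shared by Hba-a1 and Hba-a2. As a check on the labels, Impact, the paternally expressed imprinted gene of chromosome 18, read 328.4 in matUPD18 and 2466 in patUPD18 by its brightest probe set, a direction that its dimmer probe sets did not share.

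Every one of the 10 measurable globin probe sets read lower in matUPD18 under the deposited scaling. So did 9903 of all 19450 measurable probe sets, and 1526 of the 2246 in the top 5% of mean signal. When the arrays were scaled to hybridisation controls, 3 of the 10 turned the other way. At least 2-fold lower in matUPD18 were 4 of the 10. The background for that count was 1.94%: of 19450 measurable probe sets, 378 were at least 2-fold lower in matUPD18. The 4 were single probe sets of Hbb-y and Hbb-bh1 and a pair shared by the adult alpha genes. No globin probe set passed 2-fold in the other direction, where the background was 3.61%. The median log2 ratio was -0.83 over the 10, with a range from -2.03 to -0.37, beside -0.01 over all measurable probe sets. In the whole embryo, fewer red cells and less globin RNA per red cell cannot be told apart.

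**Figure D1:**
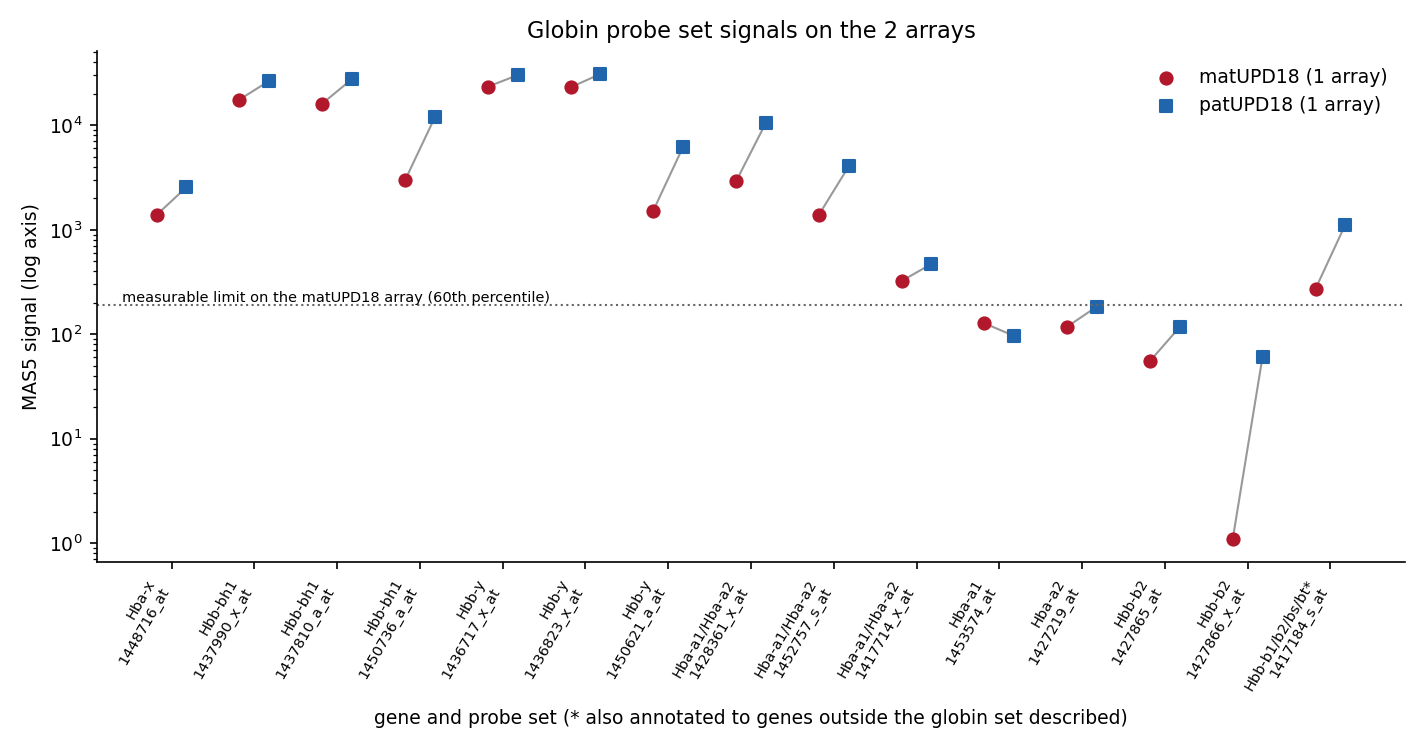
MAS5 signal (log axis) of each globin probe set on the matUPD18 array (red circles) and the patUPD18 array (blue squares), 1 array each, with lines joining the values of a probe set. Under this deposited scaling all 10 measurable globin probe sets lie lower in matUPD18 (3 do not when scaled to hybridisation controls), with the widest gaps among the 10 in 1450621_a_at of Hbb-y and 1450736_a_at of Hbb-bh1; the starred probe set is also annotated to Hbb-bs and Hbb-bt.

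Among the alpha-type genes, Hba-x was read by a single probe set (1448716_at), with a signal of 1388 in matUPD18 and 2556 in patUPD18, 1.84-fold lower in matUPD18 (log2 ratio -0.88). Of the 500 measurable probe sets nearest to it in mean signal, 4 had a ratio at least as low, and their median log2 ratio was -0.02. This probe set carries no suffix and was far from the top of the signal range. It was the one embryonic globin reading with both properties.

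The adult alpha genes Hba-a1 and Hba-a2 were read jointly by 3 measurable probe sets. The brightest (1428361_x_at) read 2911 in matUPD18 and 10567 in patUPD18, 3.63-fold lower in matUPD18, and 1 of 500 probe sets of like signal was as low. The next (1452757_s_at) read 1389 in matUPD18 and 4035 in patUPD18, 2.91-fold lower in matUPD18, with 2 of 500 as low. The dimmest (1417714_x_at) differed less, with 323.6 in matUPD18 and 471.6 in patUPD18, 1.46-fold lower in matUPD18, and 34 of 500 were as low. All 3 thus had 1 direction under the deposited scaling but spanned 1.32 on the log2 scale. Probe sets annotated to only 1 of these genes were not measurable on either array. That of Hba-a1 (1453574_at) read 127.3 in matUPD18 and 96.3 in patUPD18, the opposite direction, and that of Hba-a2 (1427219_at) read 118.2 in matUPD18 and 184.3 in patUPD18.

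Among the beta-type genes, Hbb-bh1 was read by 3 probe sets whose ratios differed in size but had 1 direction under all 5 scalings. The dimmest (1450736_a_at) read 2969 in matUPD18 and 11877 in patUPD18, 4.0-fold lower in matUPD18 (log2 ratio -2.00). It ranked 16th lowest of all 19450 measurable probe sets, and none of the 500 probe sets of like signal was as low. The brighter pair differed less: 1437990_x_at read 17620 in matUPD18 and 26632 in patUPD18, 1.51-fold lower in matUPD18. The remaining one, 1437810_a_at, read 16129 in matUPD18 and 27705 in patUPD18, 1.72-fold lower in matUPD18.

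Hbb-y showed a like division between its probe sets. Its dim probe set (1450621_a_at) read 1527 in matUPD18 and 6224 in patUPD18, 4.08-fold lower in matUPD18 (log2 ratio -2.03), the lowest ratio of the 10 and 15th lowest of the 19450. The bright ones were only slightly lower in matUPD18, and slightly higher when scaled to hybridisation controls. By 1436717_x_at the signals were 23407 in matUPD18 and 30162 in patUPD18, 1.29-fold apart. By 1436823_x_at they were 23063 in matUPD18 and 30979 in patUPD18, 1.34-fold apart. The spread of 1.66 between the log2 ratios of the Hbb-y probe sets was reached by 40 (4.29%) of the 932 genes with exactly 3 measurable probe sets, whose median spread was 0.62. For Hbb-bh1 the spread was 1.40, reached by 72 (7.73%) of those genes.

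The adult beta gene Hbb-b2 had 2 probe sets of its own, neither measurable. They read 55.4 (1427865_at) and 1.1 (1427866_x_at) in matUPD18 and 117.4 and 60.8 in patUPD18. At least 1 signal of each pair lay under the floor, so no fold is given. No probe set was annotated to Hbb-b1 alone. A probe set outside the 14, 1417184_s_at, is annotated to Hbb-b1, Hbb-b2 and also Hbb-bs and Hbb-bt, the adult beta genes of another mouse haplotype. It read 272.3 in matUPD18 and 1120 in patUPD18, 4.11-fold lower in matUPD18, and 1 of 500 probe sets of like signal was as low. By annotation, the adult beta genes were therefore measurable only as a group of 4. Other members of the globin superfamily had probe sets but none was measurable by its brightest one: myoglobin (Mb), cytoglobin (Cygb), neuroglobin (Ngb) and androglobin (Adgb) read 119.8, 14.8, 101.2 and 26.7 in matUPD18 and 58.9, 103.5, 148.6 and 6.2 in patUPD18.

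The 4 brightest globin probe sets had smaller differences than most of the other 6. The 4 bright probe sets of Hbb-y and Hbb-bh1 lay in the top 0.5% of signal on at least 1 array, above limits of 17627 in matUPD18 and 21145 in patUPD18. Probe sets in that range differed little between the arrays whatever their gene: of 251 such probe sets, none was 2-fold apart in either direction (background 0.0%), 243 were lower in matUPD18, and their log2 ratios had a median of -0.33 and quartiles of -0.41 and -0.24. Within these 251, the bright Hbb-bh1 probe sets had the lowest and the 7th lowest ratio (-0.78 and -0.60). The bright Hbb-y probe sets ranked 52nd and 100th lowest (-0.43 and -0.37), the first of these just below the lower quartile and the other between that quartile and the median. The other 6 measurable globin probe sets had a median log2 ratio of -1.70, against -0.51 for the 4 bright ones. Among these 6 the dimmer probe sets did not have the larger differences. Hba-x (-0.88) and the dimmest adult alpha probe set (-0.54) had the smallest. Whether saturation of bright probes contributed was not tested.

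**Figure D2:**
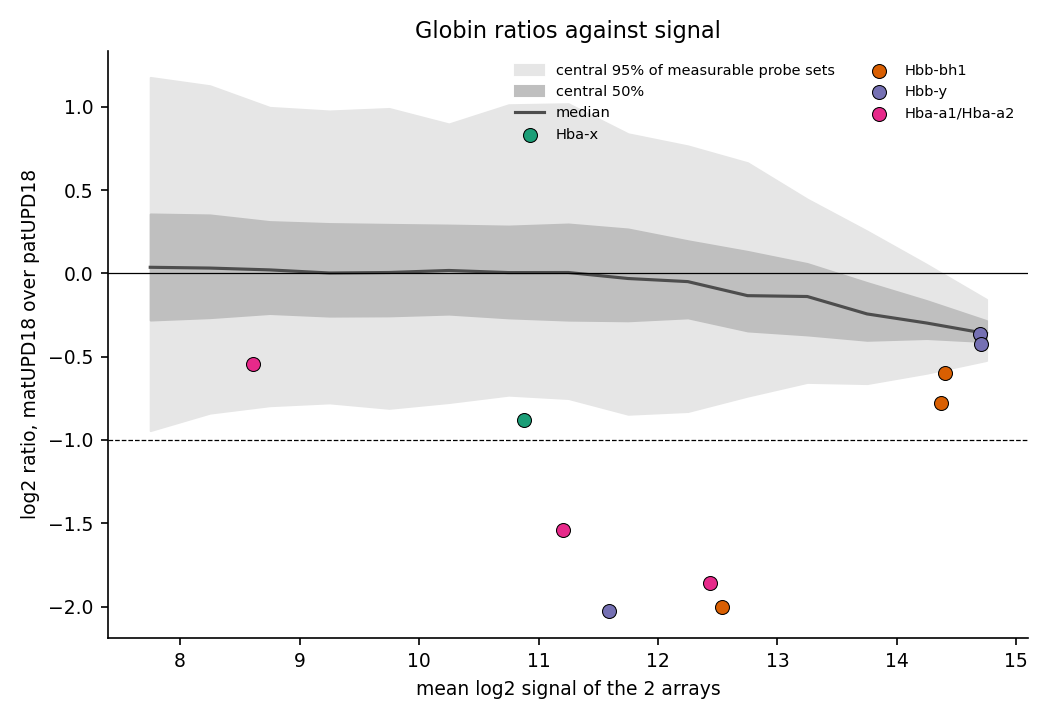
Log2 ratio (matUPD18 over patUPD18) against the mean log2 signal of the 2 arrays for the 10 measurable globin probe sets (coloured points), over the median and central ranges of all measurable probe sets in bins from a mean log2 signal of 7.5 upward; the dashed line marks 2-fold lower in matUPD18. The bright Hbb-y points fall within the narrow band of the brightest probe sets, while 4 globin points lie below the dashed line.

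The 18 hybridisation control probe sets (bacterial and phage transcripts added to the labelled sample) were all lower in matUPD18, with log2 ratios between -0.88 and -0.41 and a median of -0.56. The one in the brightest range read 20318 in matUPD18 and 28029 in patUPD18 (log2 ratio -0.46). The globin ratios can be read against this shift. With the arrays scaled to these controls, 3 globin probe sets remained at least 2-fold lower in matUPD18, the dim ones of Hbb-y (-1.46) and Hbb-bh1 (-1.44) and the brightest adult alpha one (-1.30), where the background was 0.278%. The 2nd adult alpha probe set just missed 2-fold (-0.97), Hba-x stood at -0.32, and both bright Hbb-y probe sets (0.20 and 0.14) and the dimmest adult alpha one (0.02) turned to the opposite direction. That scaling moved the median of all measurable probe sets to 0.55. Quantile and loess scaling kept all 10 directions and the same count of 4 (backgrounds 2.2% and 2.4%), but brought the bright Hbb-y probe sets to between -0.11 and 0.00. The measurable probe sets were redrawn under loess and numbered 19472. The median over adult globin probe sets was then -1.13, against -1.54 as deposited. The 3 adult alpha probe sets themselves hardly moved under loess (-1.77, -1.53 and -0.57), so that change came from the redrawn set.

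**Figure D3:**
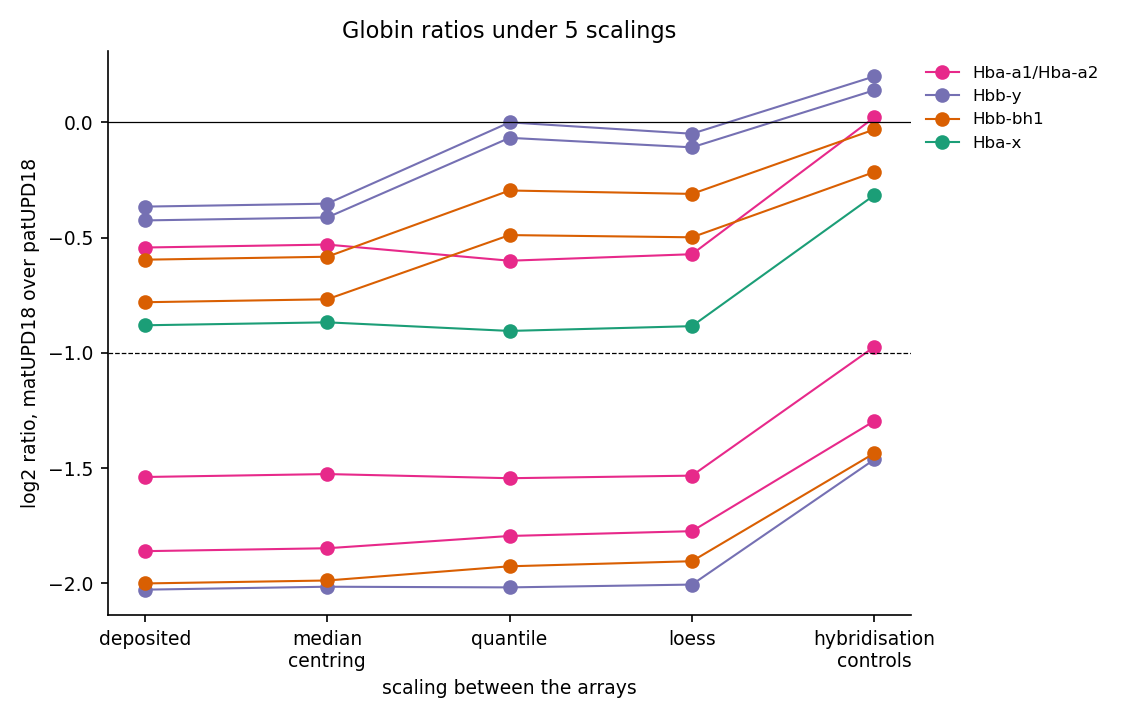
Log2 ratio (matUPD18 over patUPD18) of the 10 measurable globin probe sets under the deposited scaling and 4 others, each line a probe set coloured by gene; the dashed line marks 2-fold lower in matUPD18. The lower 4 lines stay apart from the rest under every scaling, at or below -0.97, while 3 lines cross 0 when the arrays are scaled to the hybridisation controls.

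Genes that supply haem to the globins also read lower in matUPD18 by their brightest probe sets under the deposited scaling. Of 14 measurable genes of haem synthesis and globin assembly, each taken by its brightest probe set, 13 were lower in matUPD18 (5652 of all 10484 measurable genes). By at least 2-fold, 2 were lower (background 1.78% of the 10484). The median log2 ratio was -0.54, beside -0.04 over all measurable genes, and it was -0.37 when each gene was taken by the median of its measurable probe sets. For 5 of the 14 (Alad, Uros, Cpox, Ppox and Fech) 1 measurable probe set had the opposite direction to the brightest. Alas2, the erythroid enzyme of the rate-limiting step of haem synthesis, read 262.0 in matUPD18 and 607.8 in patUPD18 (2.32-fold lower in matUPD18). Urod, a later enzyme of the pathway, read 3180 in matUPD18 and 6381 in patUPD18 (2.01-fold lower). Glrx5, which serves iron-sulphur cluster assembly, read 10631 in matUPD18 and 15328 in patUPD18 (1.44-fold lower). Alas1, the form of the enzyme used in all tissues, was nearly level at 572.5 in matUPD18 and 567.5 in patUPD18. Scaling to the hybridisation controls adds the same amount to every log2 ratio, so the list median became 0.03 while that of all measurable probe sets became 0.55.

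Red cell membrane and surface genes were more mixed. Of 15 measurable genes 11 were lower in matUPD18 (5652 of all 10484 measurable genes), 3 by at least 2-fold (background 1.78%), with a median log2 ratio of -0.41 that became 0.16 under the control scaling. Some of the 11 were kept only through their patUPD18 signal, though none of the 3. Ermap, an erythroblast membrane protein, read 319.4 in matUPD18 and 1005 in patUPD18 (3.15-fold lower in matUPD18). Slc4a1, the band 3 anion exchanger, read 2695 in matUPD18 and 7093 in patUPD18 (2.63-fold lower). The transferrin receptor Tfrc was level, with 5356 in matUPD18 and 5201 in patUPD18, and the membrane skeleton gene Dmtn read 324.9 in matUPD18 and 242.3 in patUPD18, 1.34-fold higher in matUPD18. The globin median minus the list median was -0.29 for the haem list and -0.42 for the membrane list on the log2 scale. These set a median over globin probe sets against medians over genes by their brightest probe sets. By brightest probe sets, the embryonic globin genes had a median of -0.60, beside -0.54 for the haem list. The adult alpha genes, read jointly, stood at -1.86 by their brightest. Without the globin probe sets in the top 0.5% of signal these differences were -1.16 and -1.29. The lists were still read by their brightest probe sets there, so the 2 sides are not alike. None of these differences could be tested with 1 array per genotype.

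The transcription factors that regulate globin genes were divided. Of 15 measurable factors 10 were lower in matUPD18 (5652 of all 10484 measurable genes), 4 by at least 2-fold (background 1.78%). At least 2-fold higher in matUPD18 was 1 (background 2.7%). The median log2 ratio was -0.12, and it became 0.45 under the control scaling. Gfi1b, a repressor needed for red cell and platelet lineages, read 98.9 in matUPD18 and 307.2 in patUPD18 (3.11-fold lower in matUPD18). Its matUPD18 signal was under the measurable limit and not far above the floor. The other 3 of the 4 are named after their values were seen. Gata1, the GATA factor of red cell development, read 143.9 in matUPD18 and 371.4 in patUPD18 (2.58-fold lower in matUPD18). Like Gfi1b, it was kept only through its patUPD18 signal. Klf1, the activator that binds CACCC boxes like those printed above, read 267.0 in matUPD18 and 678.7 in patUPD18 (2.54-fold lower). Cbfa2t3, a corepressor, read 251.5 in matUPD18 and 522.7 in patUPD18 (2.08-fold lower), with its other measurable probe set in the opposite direction. Bach1, a haem-sensing repressor of globin genes, read 3111 in matUPD18 and 1458 in patUPD18 (2.13-fold higher in matUPD18). A further measurable Bach1 probe set was lower in matUPD18. Klf3, a repressor that also binds CACCC boxes, read 4831 in matUPD18 and 2924 in patUPD18 (1.65-fold higher in matUPD18), with 1 of its 3 other measurable probe sets in the opposite direction.

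**Figure D4:**
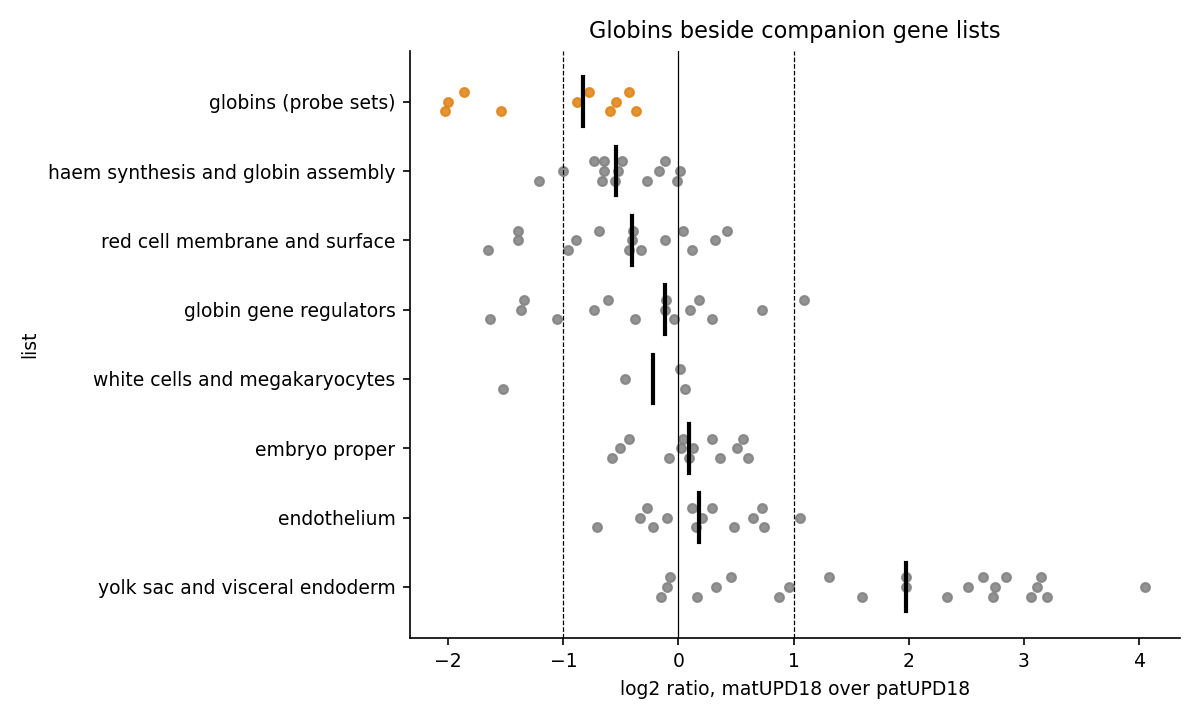
Log2 ratio (matUPD18 over patUPD18) of each measurable globin probe set (orange) and of each measurable gene of 7 companion lists by its brightest probe set (grey), with a black bar at each median and dashed lines at 2-fold. The globin median is -0.83, the haem synthesis median -0.54 and the yolk sac median 1.97.

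Markers of other cells in the embryo were set beside the globins. The yolk sac and visceral endoderm list moved the other way. Of 23 measurable genes, 20 were higher in matUPD18 (4832 of all 10484 measurable genes), 15 by at least 2-fold (background 2.7%). Most of these 15 were under the measurable limit in patUPD18 and were kept only through their matUPD18 signal. The list had a median log2 ratio of 1.97, which fell to 1.39 with the floor raised to the 60th percentile. Its summed signal was 42899 in matUPD18 and 10911 in patUPD18. Afp (alpha-fetoprotein) read 12717 in matUPD18 and 1914 in patUPD18, and Ttr (transthyretin) 11979 and 1349, above the measurable limit on both arrays. Apoa1 read 1366 in matUPD18 and 43.5 in patUPD18, the latter under the floor. Apoa2 was nearly level at 247.7 in matUPD18 and 274.9 in patUPD18. Blood islands lie next to this endoderm, and the part of tissue content in the globin readings was not tested. Endothelial genes had a median of 0.18 over 14 genes, of which 9 were higher in matUPD18, 1 by at least 2-fold (background 2.7%). That was Fli1, at 311.8 in matUPD18 and 150.2 in patUPD18, the latter under the measurable limit. Kdr, a receptor of blood vessel and blood precursors, read 1426 in matUPD18 and 910 in patUPD18. Emcn read 126.1 in matUPD18, under the limit, and 205.4 in patUPD18. Of the white cell and megakaryocyte list only 4 of 12 genes were measurable. Its platelet factor gene Pf4 read 123.6 in matUPD18, under the measurable limit, and 356.2 in patUPD18. Csf1r, a macrophage receptor gene, read 394.6 in matUPD18 and 378.4 in patUPD18. Genes of the embryo proper had a median of 0.09, with 13 of 15 measurable and none 2-fold apart. Under the control scaling the endothelial and embryo medians became 0.74 and 0.66, beside 0.55 over all measurable probe sets. Cardiac actin (Actc1) read 7165 in matUPD18 and 10179 in patUPD18, while Tnnt2, a cardiac troponin gene, read 6777 in matUPD18 and 7159 in patUPD18.

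The genes most like the embryonic globins were sought among the 1469 other genes whose mean signal was in the top 5%, by closeness of the log2 ratio to -0.60, the median over Hba-x, Hbb-bh1 and Hbb-y by their brightest probe sets. Over only 2 arrays, likeness means an equal ratio and nothing more. The nearest 5 were Map1lc3b, Gsto1, Idh1, Ciapin1 and Anapc13, with log2 ratios from -0.60 to -0.59. A ratio within 0.1 of that value, which is the ratio of 1437990_x_at of Hbb-bh1, was held by 131 of the 1469. The nearest 5 were all dimmer than that probe set on both arrays, and among probe sets of its own brightness it ranked 7th lowest of 251, as given above. The dim Hbb-y and Hbb-bh1 readings and the brightest adult alpha reading were instead 2nd, 3rd and 4th lowest of the 2246 measurable probe sets in the top 5% of signal, of which 13 (0.579%) were at least 2-fold lower in matUPD18.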

How the data were processed

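RNA from whole embryos was profiled on 1 Affymetrix mouse array for matUPD18 and 1 for patUPD18, grouped by the sample titles. Before labelling with biotin, the RNA was copied with a RiboAmp amplification kit, per the labels' protocols. Such amplification favours 3' ends, and the 3' Gapdh control read 33.95 times the 5' one in matUPD18 and 36.4 times in patUPD18. The deposited values are linear MAS5 signal intensities made with MAS5 and GCOS, per the submitters' processing notes, and versions and genome build are not given in those notes. The 2% trimmed mean was 500.0 on each array, which hides any change common to most transcripts. Signals ranged up to 34954 in matUPD18 and 46322 in patUPD18, and no detection calls were used here.

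The platform annotation gave 1 symbol for 34958 of 45101 probe sets, several for 932 and none for 9211. Symbols were updated through the Entrez identifier to RefSeq (GRCm38.p6). Suffixes _a_at, _s_at and _x_at mark probe sets that may match several transcripts of a gene, several genes or unrelated sequences. Control probe sets were left out of counts over all features. Genes of the companion lists were read by their brightest probe set. Those named were drawn from each list's lowest and highest ratio and its 2 brightest genes, every globin superfamily gene, and the 5 genes most like the embryonic globins. Outside this rule, Gata1, Klf1 and Cbfa2t3 were named because they were at least 2-fold lower in matUPD18. Some haem genes were named only for disagreeing probe sets. Members and lists were chosen with earlier results of these data known. No test was possible with 1 array per genotype, and counts use a 2-fold threshold. Alternatives were other scalings (median centring, quantile, loess with a span of 0.3, hybridisation controls), floors, thresholds and probe set choices. The procedure was tested on simulated data. Tables were handled with pandas 2.3.3 and numpy 2.4.6 in Python 3.11.15, loess with statsmodels 0.14.6 and plots with matplotlib 3.10.9.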

Additional observations from a re-analysis of the deposited data

How the results depend on the processing

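The count of 4 globin probe sets at least 2-fold lower in matUPD18 was 3 when the arrays were scaled to the hybridisation controls and 4 under median centring, quantile, loess and the other floors. It was 7 at a 1.5-fold threshold (background 8.62%) and 0 without probe sets of suffix x, s or a, which left only Hba-x, so no adult median could then be given. A move was judged against 0.44, the standard deviation between probe sets of a gene, since no replicate spread exists. Scaling to the controls changed the median log2 ratio to -0.27 over all globin probe sets, -0.22 over the embryonic and -0.97 over the adult ones. Without probe sets in the top 0.5% of signal the medians were -1.70 over all and -2.00 over the embryonic ones. Raising the floor to the 60th percentile moved the yolk sac list median from 1.97 to 1.39. Directions reversed only under the control scaling, among the settings run: for Hbb-y by its brightest probe set (0.14) and by 1436717_x_at (0.20), for 1417714_x_at of the adult alpha genes (0.021), and for the haem synthesis (0.026), red cell membrane (0.16), regulator (0.45) and white cell (0.34) list medians. By its dimmest measurable probe set instead of the brightest, Hbb-bh1 stood at -2.00, Hbb-y at -2.03 and the adult alpha genes at -0.54. No paired analysis was possible because each genotype has 1 array. Differences within the signal range where probes may saturate, and those of adult probe sets under the measurable limit, cannot be resolved on these arrays.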
